A study of Homo sapiens with 8 samples.

Results

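The genes followed here, 9 in number, have been named as targets of miR-130-3p: TSC1, CSF1, ACVR1, TGFBR1, TGFBR2, SMAD5, ESR1, PPARG and ABCA1. They were found by their symbols in the gene annotation of the array, and every probe that carries one of these symbols was kept. These 9 genes have 19 probes of 58201 probes for 43317 gene names on the array, and each gene kept at least 1 probe after a filter on dim probes (15 of the 19 probes, against 28208 probes and 21629 genes in all). The rule that picks them uses their symbols and no value of the arrays. The genes themselves were chosen with earlier results of these data known.

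Gene expression was measured in established human cancer cell lines on 8 two-colour Agilent arrays. Cy3 marked the RNA of mock cells, which were not transfected, and Cy5 that of transfected cells of the same line, on every array and with no dye swap. PANC1 cells, a pancreatic cancer line, received miR-130-5p on 1 array and miR-130-3p on another, and these 5p and 3p strands form the comparison reported here. The other 6 arrays held PC3 prostate cancer cells with si-PIR-2 or si-PIR-3 (siRNAs against the transcription coregulator gene PIR), SK-MES-1 lung squamous cell carcinoma cells with miR-144-5p or miR-144-3p, and, with miR-204-5p, SW1990 cells from pancreatic cancer or MDA-MB-231 cells from breast cancer. Each transfection had 1 array and no array held a control miRNA, so no test between transfections was possible, and effects of transfection and of dye cannot be told apart from those of the transfected RNA within a single array. All values are log2 ratios of transfected over mock cells unless stated otherwise, each with the error that the scanner software assigns to the spot (written ±), which covers the measurement of the spot and no spread between cultures.

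MicroRNAs guide Argonaute proteins to messenger RNAs, chiefly through pairing of the seed at their 5′ end with sites that are mostly in 3′ untranslated regions, and this lowers the level or the translation of the messenger. The miR-130 and miR-301 families share 1 seed on their 3p strands, whereas the 5p strands carry other seeds. The genes followed here belong to growth control through mTOR (TSC1), macrophage growth signalling (CSF1), TGF-β, activin and bone morphogenetic protein (BMP) signalling (ACVR1, TGFBR1, TGFBR2, SMAD5), nuclear receptors (ESR1, PPARG) and cholesterol export (ABCA1).

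The mature sequences are printed to show what the 3p strands have in common and where the 5p strands differ. The labels give miR-130 without the letter a or b, so both forms are considered. Sequences are from RefSeq on GRCh38.p14, 5′ to 3′, and the capitals mark the seed, bases 2 to 8.

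hsa-miR-130b-3p: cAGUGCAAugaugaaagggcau
hsa-miR-301a-3p: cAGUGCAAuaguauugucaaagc
hsa-miR-301b-3p: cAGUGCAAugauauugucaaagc
hsa-miR-454-3p: uAGUGCAAuauugcuuauagggu
hsa-miR-130a-5p: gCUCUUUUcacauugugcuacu
hsa-miR-130b-5p: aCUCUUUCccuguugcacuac

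The 4 strands of the 3p side shared the seed AGUGCAA, whose match in a messenger reads TTGCACT. The seeds of miR-130a-5p and miR-130b-5p differed from each other in their last base, and their matches read AAAAGAG and GAAAGAG, which have the letters AAAGAG in common. In the 60-base probes, read in 1 direction as the array annotation gives them, TTGCACT was present in 240 probes (0.412% of all), AAAAGAG in 576 (0.99%) and GAAAGAG in 534 (0.918%). Among the 19 probes of the 9 genes, 1 probe of CSF1 held TTGCACT and 1 probe of TSC1 held AAAAGAG. The probes cover a small stretch of each transcript, so they do not show how many matches the whole messengers hold. The stretch of the CSF1 probe around its match lies at chr1:110472249-110472278 on the plus strand of hg19 and is shown because it is the only match to the transfected 3p seed that the array itself carries in these genes. The capitals mark the match.

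CSF1 probe A_33_P3354940: gaaggaagccaTTGCACTgtgaacactgta

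Between 41.4% and 46.4% of probes were well above background in Cy3 and between 49.8% and 54.6% in Cy5, no probe was saturated, and the median error of a ratio over passing probes lay between 0.21 and 0.22. Keratin genes KRT8, KRT18 and KRT19 and the adhesion gene EPCAM were well above background in mock cells of all 5 lines. PANC1 mock cells had VIM, CDH1 and CDH2 but not FN1 above background, and neither the squamous markers TP63, KRT5 and KRT14 nor PECAM1. PC3 mock cells lacked KLK3 signal well above background, and SK-MES-1 mock cells lacked KRT5 but had TP63 and KRT14. A probe of the blood cell gene PTPRC was well above background at a low level in all 5 lines.

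TSC1, ACVR1 and PPARG, 3 of the 9 genes, had their lowest ratio of all 8 arrays on the miR-130-3p array. Among all 21629 genes that passed the filter, 15.2% had their lowest ratio on this array and 19.8% had it on the miR-130-5p array, where TGFBR1 was the only member. The median of the 9 genes was -0.36 on the miR-130-3p array, beside 0.01 for all genes. On the miR-130-5p array the median of the 9 genes was 0.05, beside 0.08 for all genes, and on the other 6 arrays the median of the 9 genes lay between -0.16 (MDA-MB-231 with miR-204-5p) and 0.29 (SW1990 with miR-204-5p).

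At or below -1 on the miR-130-3p array there was 1 of the 9 genes (PPARG), beside 1.9% of all genes, and none was at or above 1, beside 4.37%. At or below -0.5 there were 4 of the 9 (PPARG, ACVR1, TSC1 and, over a mock channel not well above background, ABCA1), beside 10.6% of all genes, and none was at or above 0.5, beside 14.3%. The difference between the PANC1 arrays, miR-130-3p minus miR-130-5p, was at or below -1 for 2 of the 9 genes (ACVR1 and ABCA1), beside 6.97% of all genes, and at or above 1 for TGFBR1, beside 8.73%. ABCA1 counts with a limit here too, since neither PANC1 mock channel measured it above background, and 1 gene (ACVR1) remained where both channels had to be well above background. With a threshold of 0.5 the difference was at or below it for 4 genes (23.1% of all genes) and at or above it for 1 (21.8% of all genes). The median difference of the 9 genes was -0.41, beside -0.06 for all genes. The miR-130-5p array was the widest of the 8: the SD over all genes was 0.69 there and 0.52 on the miR-130-3p array, so a difference between them carries more of the spread of the miR-130-5p array. In RNA from whole cultures, fewer cells that express a gene and less RNA per cell cannot be told apart.

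**Figure D1:**
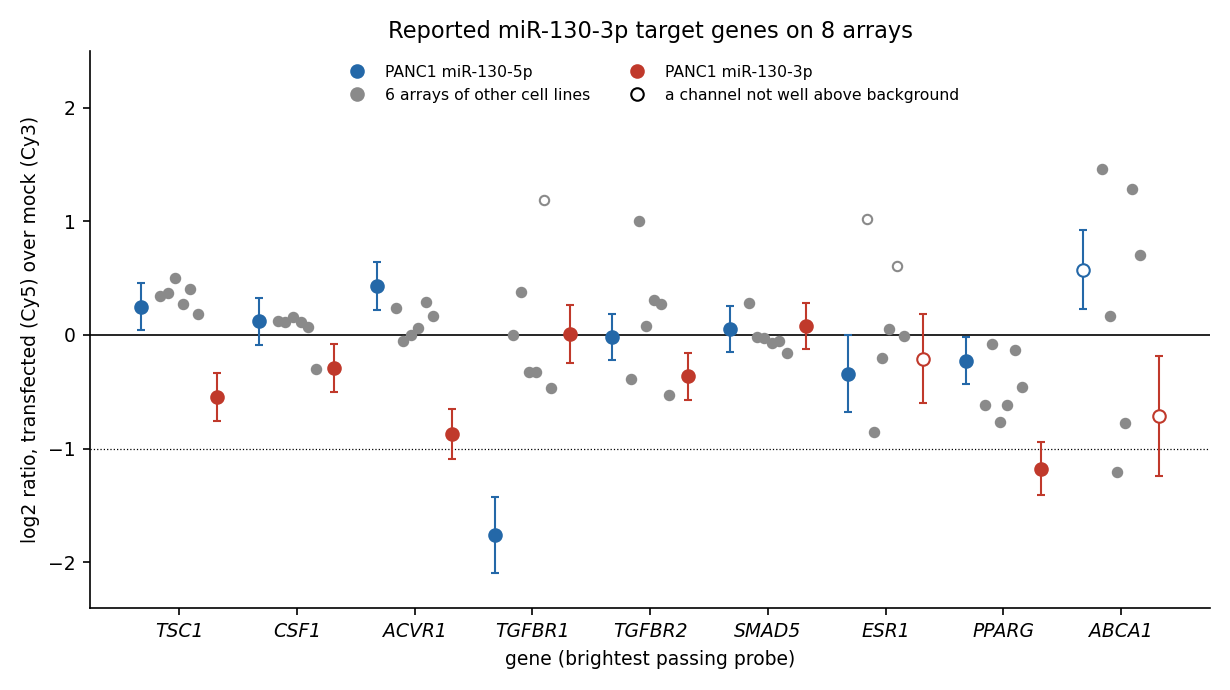
The log2 ratio of transfected over mock cells (vertical axis) is plotted for the brightest passing probe of each of the 9 genes, with the PANC1 arrays in blue (miR-130-5p) and red (miR-130-3p), the 6 arrays of other lines in grey, bars for the scanner software's error, and open symbols where a channel was not well above background. The red symbols of TSC1 (-0.55), ACVR1 (-0.87) and PPARG (-1.18) lie below all other arrays of the same gene, whereas TGFBR1 is lowest for miR-130-5p (-1.76).

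TSC1 encodes hamartin, which with tuberin forms the complex that holds mTOR complex 1 in check. Its brighter probe (chr9:135766811-135766870, minus strand of hg19, base 8480 of NM_000368) read -0.55 ± 0.21 with miR-130-3p and 0.25 ± 0.21 with miR-130-5p. On the other 6 arrays it read 0.18 at the lowest, 0.36 in the median and 0.50 at the highest. Only the miR-130-3p array was below 0, and its value was 0.73 below the next lowest array. The difference between the PANC1 arrays was -0.80 ± 0.29, so that the ratio with miR-130-3p was 57.6% of that with miR-130-5p and the cells with miR-130-3p stood at 68.4% of the mock level. This is also the probe that holds the match AAAAGAG to miR-130a-5p. The other passing probe of TSC1, on an Ensembl transcript, was dim: its mock channel was well above background on 1 of 8 arrays, and it read 1.38 ± 0.97 with miR-130-3p and 0.81 ± 0.43 with miR-130-5p, so its difference was opposite in sign to that of the brighter probe.

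The larger differences among the genes around TSC1 in the mTOR pathway were above 0. Of 12 TSC and mTOR genes that passed the filter, 4 had a difference at or above 0.5, beside 21.8% of all genes. None was at or below -0.5, beside 23.1%, and the median difference was 0.15. None had a difference at or below -1, beside 6.97%, and 1 had a difference at or above 1, beside 8.73%. That gene was DEPTOR, an inhibitory subunit of both mTOR complexes, which read 2.18 ± 0.29 with miR-130-3p and -0.95 ± 0.24 with miR-130-5p, and its difference of 3.12 was 1.46 with the background correction that adds an offset of 50. RHEB, the GTPase on which the TSC complex acts, differed by 0.93 ± 0.30, DDIT4, a stress-induced inhibitor upstream of TSC1, by 0.85 ± 0.29, and the kinase gene RPS6KB1 by 0.67 ± 0.29. Of the 12 genes, 6 were lowest of 8 arrays with miR-130-5p, beside 19.8% of all genes, and 1 with miR-130-3p, beside 15.2%.

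CSF1 encodes macrophage colony-stimulating factor. The probe that stood for it (chr1:110469302-110469361, plus strand, base 2708 of NM_172212) read -0.29 ± 0.21 with miR-130-3p and 0.12 ± 0.21 with miR-130-5p, a difference of -0.41 ± 0.29. The other 6 arrays ranged from -0.30 to 0.16 with a median of 0.12, and MDA-MB-231 cells with miR-204-5p read as low as the miR-130-3p array. The probe with the match TTGCACT (base 2857 of NM_000757) read -0.60 ± 0.24 with miR-130-3p and 0.03 ± 0.22 with miR-130-5p. On that probe the miR-130-3p array was the lowest of 8, with SW1990 next at -0.46 ± 0.35 and PC3 with si-PIR-2 highest at 1.35 ± 0.38, where the mock channel was not well above background. The 2 probes are annotated to different transcripts of CSF1, and both were lower with miR-130-3p than with miR-130-5p. A remaining probe of CSF1 did not pass the filter. None of the 4 related genes (CSF1R, IL34, CSF2 and CSF3) passed it either.

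ACVR1 encodes ALK2, a type I receptor for BMPs and activins. Its brighter probe (chr2:158593434-158593493, minus strand, base 2509 of NM_001105) read -0.87 ± 0.22 with miR-130-3p and 0.43 ± 0.21 with miR-130-5p. The other 6 arrays lay close to 0, from -0.05 through a median of 0.11 to 0.29. The miR-130-3p array stood 0.82 below the next lowest, and the PANC1 arrays were the lowest and the highest of the 8. The difference between them was -1.31 ± 0.30, which put the ratio with miR-130-3p at 40.5% of that with miR-130-5p, while the cells with miR-130-3p stood at 54.6% of the mock level. The second probe of the same transcript (chr2:158593976-158594035, base 1967) read -1.17 ± 0.24 with miR-130-3p and 0.00 ± 0.21 with miR-130-5p, and from -0.06 to 0.64 on the other 6 arrays. Both probes were thus lowest with miR-130-3p, and they disagreed on the miR-130-5p array. With the offset of 50 the difference of the brighter probe was -0.92.

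TGFBR1 encodes ALK5, the type I receptor for TGF-β. Its only probe (chr9:101916322-101916381, plus strand, base 6322 of NM_004612) read 0.01 ± 0.25 with miR-130-3p and -1.76 ± 0.33 with miR-130-5p, so that the value that departed from 0 in PANC1 cells belonged to the 5p strand. The other 6 arrays ranged from -0.47 to 1.19 with a median of -0.16, and the highest, SW1990, had a mock channel not well above background. The signal was low: on the miR-130-5p array the processed intensity was 88.1 in mock and 26.1 in transfected cells, and on the miR-130-3p array it was 63.9 and 64.5. The difference of 1.77 ± 0.42 shrank to 0.36 when the ratios were computed with a background correction that adds an offset of 50. With the transfected channels alone set against each other it was 1.49.

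TGFBR2 encodes the type II receptor that binds TGF-β and recruits TGFBR1. It was bright, and its main probe (chr3:30735163-30735222, plus strand, base 4232 of NM_001024847) read -0.36 ± 0.21 with miR-130-3p and -0.02 ± 0.20 with miR-130-5p. On the other 6 arrays it ranged from -0.53 (MDA-MB-231 with miR-204-5p) to 1.01 (PC3 with si-PIR-3) with a median of 0.18, and the other PC3 array, with si-PIR-2, read -0.39. MDA-MB-231 cells and PC3 cells with si-PIR-2 were lower than the miR-130-3p array, and the difference of -0.34 ± 0.29 was close to its error. The second probe, upstream of it at chr3:30703057-30703116, read 0.32 ± 0.23 with miR-130-3p and -0.40 ± 0.24 with miR-130-5p. The 2 probes of TGFBR2 therefore gave differences of opposite sign, and no direction is given for this gene.

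SMAD5 encodes a SMAD protein that BMP receptors such as ALK2 phosphorylate. It read 0.08 ± 0.21 with miR-130-3p and 0.05 ± 0.21 with miR-130-5p, a difference of 0.02 ± 0.29, and the other 6 arrays ranged from -0.16 to 0.28. No array departed from 0 by more than 0.28. The probe lies at chr5:135513109-135513168 on the plus strand, base 1784 of NM_001001419, and a second probe named for SMAD5 on an Ensembl transcript was at background on all 8 arrays.

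**Figure D2:**
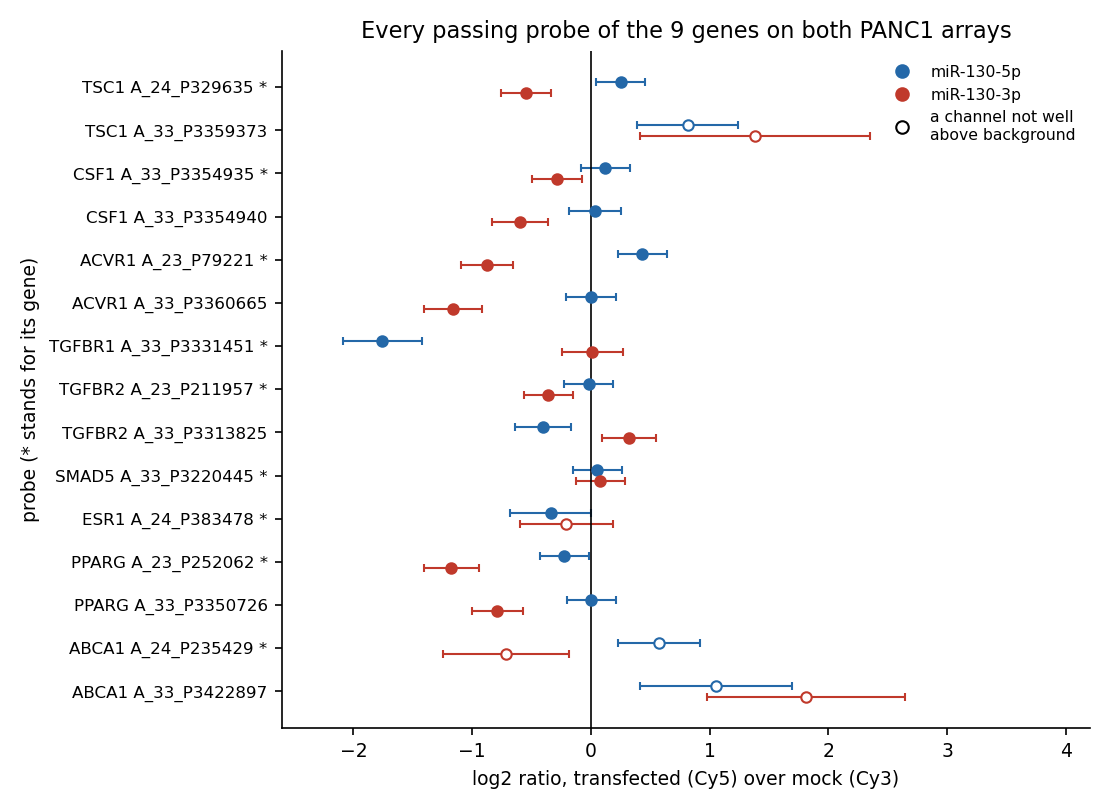
The log2 ratio of transfected over mock cells (horizontal axis) is plotted with the scanner software's error for each of the 15 passing probes of the 9 genes on the miR-130-5p array (blue) and the miR-130-3p array (red); an asterisk marks the probe that stands for its gene and open symbols a channel not well above background. Both probes of ACVR1, of PPARG and of CSF1 lie lower with miR-130-3p, whereas the probes of TSC1, TGFBR2 and ABCA1 disagree in direction.

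The rest of the TGF-β and BMP pathway was taken from lists. Of 8 ligand genes that passed, 1 had a difference at or below -1, beside 6.97% of all genes. None was at or above 1, beside 8.73%, and the median difference was -0.38. BMP6, a ligand that signals through ACVR1 among others, read -1.03 ± 0.22 with miR-130-3p and 0.22 ± 0.21 with miR-130-5p, a difference of -1.25 ± 0.30. The differences of TGFB2 (-0.80 ± 0.31) and BMP2 (-0.51 ± 0.85, its mock channel not well above background) stayed within the threshold. BMP7 differed by 0.71 ± 0.29 on its brightest probe, and by 1.93 and 0.47 on its other probes, so 1 of its probes passed the threshold.

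Among 6 other receptor genes that passed, none had a difference at or below -1, beside 6.97% of all genes. A difference at or above 1 was found in 1 of them, beside 8.73%, and the median difference was 0.60. The type II receptor gene ACVR2B read 1.53 ± 0.25 with miR-130-3p and 0.32 ± 0.23 with miR-130-5p. BMPR2 and ACVR2A, also type II, differed by 0.78 ± 0.31 and 0.69 ± 0.37, and the type I gene BMPR1A by 0.50 ± 0.30. The type I gene ACVR1B differed by 0.32 ± 0.54, less than its error, with neither mock channel well above background, and by 0.08 with the offset of 50. ENG, the co-receptor endoglin, differed by -0.53 ± 0.30. With the offset of 50, ACVR2B differed by 0.72, BMPR2 by 0.36 and ACVR2A by 0.17, so none of the 3 reached 1.

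Of 7 other SMAD genes that passed, 2 had differences at or above 1, beside 8.73% of all genes. None was at or below -1, beside 6.97%. SMAD6, which encodes an inhibitory SMAD of the BMP branch, differed by 1.36 ± 0.30 and SMAD9, a relative of SMAD5, by 1.04 ± 0.31 (1.90 on its other probe and 0.50 with the offset of 50). In both, the miR-130-5p array was below 0, at -0.85 ± 0.22 and -0.64 ± 0.22, and the miR-130-3p array above it, at 0.51 ± 0.21 and 0.40 ± 0.21. SMAD4, the partner shared by all branches, differed by -0.82 ± 0.30 on its brighter probe and by -0.11 on its other one, and the inhibitory SMAD7 by -0.30 ± 0.31.

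Of 9 genes that respond to TGF-β or BMPs, none had a difference at or below -1, beside 6.97% of all genes. The median difference was -0.30, although 3 had differences at or above 1, beside 8.73% of all genes. These were CTGF, a secreted matrix protein gene (2.02 ± 0.28 with miR-130-3p, 0.46 ± 0.21 with miR-130-5p), BAMBI, a pseudoreceptor gene (1.83 ± 0.27 and 0.55 ± 0.22), and SKIL, which encodes a corepressor of SMADs (1.08 ± 0.23 and -0.02 ± 0.21). On the miR-130-3p array itself these 3 genes were also at or above 1, beside 4.37% of all genes. With the offset of 50 the difference of CTGF was 1.57, and those of BAMBI (0.93) and SKIL (0.89) no longer reached 1.

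PPARG encodes the nuclear receptor that drives fat cell differentiation and is bound by fatty acid ligands. Its brighter probe (chr3:12458499-12458558, plus strand, base 1305 of NM_138711) read -1.18 ± 0.23 with miR-130-3p and -0.22 ± 0.21 with miR-130-5p. On the other 6 arrays it was below 0 as well, from -0.77 (SK-MES-1 with miR-144-5p) through a median of -0.53 to -0.08 (PC3 with si-PIR-3). The miR-130-3p array was lowest, by 0.41 to the next array, and when the mean of the 6 arrays of other lines was subtracted the value was -0.73. The difference between the PANC1 arrays was -0.95 ± 0.31, and the cells with miR-130-3p stood at 44.2% of the mock level. With the offset of 50 the ratio with miR-130-3p was -0.96, just short of the threshold of -1. The second probe (chr3:12434128-12434187, base 685) read -0.79 ± 0.22 with miR-130-3p and 0.00 ± 0.20 with miR-130-5p, again the lowest of its 8 arrays, the next being -0.42 ± 0.21 in SK-MES-1 cells with miR-144-3p.

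ESR1 encodes the estrogen receptor α. The probe that passed (chr6:152129048-152129107, plus strand, base 234 of NM_000125) was dim, with processed intensities between 12.7 and 46.8 in mock cells. It read -0.21 ± 0.39 with miR-130-3p, where the mock channel was not well above background, and -0.34 ± 0.34 with miR-130-5p. The other 6 arrays ranged from -0.86 to 1.02, and these extremes were the 2 PC3 arrays. The difference of 0.13 ± 0.52 was smaller than its error, and the other 2 probes of ESR1, one of them at base 5828 of the same transcript, were at background on all 8 arrays in both channels. No change of ESR1 was detectable at this signal.

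Among 9 genes of nuclear receptors, their partners and their response genes that passed, 2 had differences at or above 1, beside 8.73% of all genes. None was at or below -1, beside 6.97%, and the median was -0.17. ANGPTL4, a lipase inhibitor gene that PPARs activate, read 1.15 ± 0.23 with miR-130-3p and -0.17 ± 0.20 with miR-130-5p. PPARA, the related receptor gene, differed by 1.03 ± 0.34, which became 0.29 with the offset of 50. GREB1, an estrogen response gene, differed by -0.93 ± 0.37, or -0.19 with the offset. PLIN2, which encodes a lipid droplet coat protein, differed by -0.66 ± 0.30 and by -1.19 on its other probe.

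ABCA1 encodes the transporter that passes cholesterol to apolipoprotein A-I. In PANC1 mock cells it was not well above background on either array, whereas both transfected channels were. Its brighter probe (chr9:107543704-107543763, minus strand, base 10022 of NM_005502) read -0.71 ± 0.53 with miR-130-3p and 0.58 ± 0.34 with miR-130-5p. With an offset of 50 and scaling between arrays, cells with miR-130-5p stood 1.05-fold above the mean measured mock signal of the PANC1 arrays. That mock signal was not well above background, so this fold is no firm lower limit. For miR-130-3p no fold can be given. The difference of -1.29 ± 0.63 was -1.43 when the transfected channels alone were compared, with processed intensities of 21.0 for miR-130-3p and 64.4 for miR-130-5p, and -0.14 with the offset of 50. The second probe (chr9:107624012-107624071, base 835) read 1.81 ± 0.83 and 1.06 ± 0.64, on mock signals not well above background. In lines where ABCA1 was bright enough, its ratio covered a wide range without any miR-130 strand: SK-MES-1 cells read -1.20 ± 0.23 with miR-144-5p and -0.78 ± 0.22 with miR-144-3p, and SW1990 cells with miR-204-5p 1.29 ± 0.24. PC3 cells read 1.46 ± 0.25 with si-PIR-2 and 0.17 ± 0.21 with si-PIR-3. The values of the brighter probe in PANC1 cells lay within that range. The 1.81 of the second probe with miR-130-3p lay above it, over a mock signal not well above background.

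Of 8 genes of cholesterol transport and its control by LXR receptors that passed, none had a difference beyond 1 in either direction. The shares of all genes were 6.97% at or below -1 and 8.73% at or above 1. The median difference of the 8 genes was -0.37. APOE, an apolipoprotein gene, read 0.09 ± 0.20 with miR-130-3p and was higher with miR-130-5p, a difference of -0.91 ± 0.30. APOA1 differed by -0.84 ± 0.56 with a dim mock channel, NR1H2, which encodes an LXR, by -0.76 ± 0.30, and the transporter gene ABCG1 by 0.68 ± 0.73 with neither mock channel well above background.

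A further 15 genes that have been named as targets of the miR-130 and miR-301 families passed the filter. Their median difference was -0.41, with 2 at or below -1 (6.97% of all genes) and 1 at or above 1 (8.73%). With miR-130-3p, 4 of the 15 were lowest of 8 arrays, beside 15.2% of all genes. FOSL1, which encodes an AP-1 subunit, read -1.57 ± 0.25 with miR-130-3p and -0.27 ± 0.21 with miR-130-5p, and MET, the hepatocyte growth factor receptor gene, read -0.97 ± 0.22 and 0.25 ± 0.21. TP53INP1, a p53 response gene, had 0.33 ± 0.21 with miR-130-3p and -1.08 ± 0.24 with miR-130-5p. BCL2L11, which encodes the cell death protein BIM, was above 0 with both strands, at 0.51 ± 0.21 and 1.42 ± 0.24. On the miR-130-3p array alone their median was 0.03, beside -0.36 for the 9 genes and 0.01 for all genes. In every list, each named gene kept the sign of its difference with the offset of 50, and TP53INP1 then differed by 0.63 in place of 1.41.

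**Figure D3:**
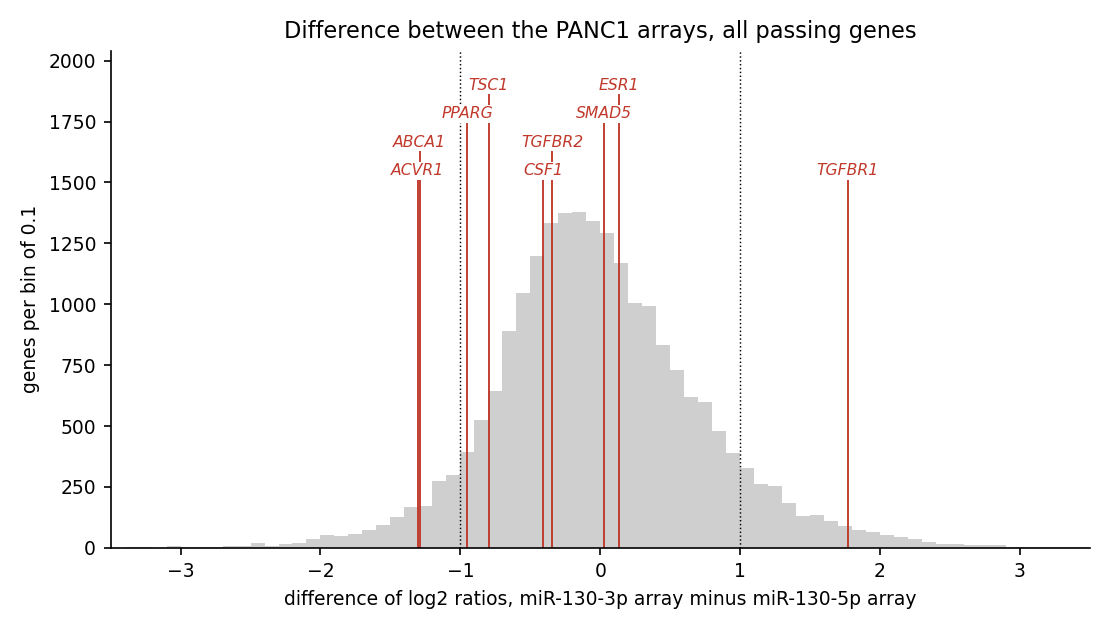
The histogram counts all 21629 passing genes by the difference of their log2 ratios, miR-130-3p array minus miR-130-5p array, in bins of 0.1 (vertical axis, genes per bin), with red lines at the 9 genes and dotted lines at -1 and 1. ACVR1 (-1.31) and ABCA1 (-1.29) lie below -1, TGFBR1 (1.77) above 1, and the other 6 lie between -0.95 and 0.13.

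Where each gene fell among all genes was read from the same values. On the miR-130-3p array 1.15% of genes were lower than PPARG, 2.90% lower than ACVR1 and 8.99% lower than TSC1. In the difference between the PANC1 arrays the shares were 7.82%, 3.46% and 11.3%. ABCA1 is given no place, because its mock signal was not well above background. CSF1 (21.1% on the miR-130-3p array) and TGFBR2 (16.7%) were in the lower part of the distribution, and SMAD5 (56.6%) and TGFBR1 (49.8%) in its middle. The place of TGFBR2 is that of its brighter probe only, since its second probe read 0.32 on the miR-130-3p array.

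The seed searches gave a reading of the transfected strands that rested mostly on other genes. On the miR-130-3p array, the 129 passing probes with TTGCACT had a median of -0.13 and all passing probes 0.01, a difference of -0.14. The median was -0.03 beside 0.02 with the offset of 50, -0.04 beside 0.01 for the match to bases 2 to 7, and 0 for both groups without the filter on dim probes. At or below -1 on the miR-130-3p array were 5.43% of these probes, beside 1.85% of all, but the share was 5.43% (3.12% of all) in PC3 cells with si-PIR-2 and 6.98% (2.55% of all) with si-PIR-3, so it was not particular to the miR-130-3p array. By the median, the same probes lay 0.10 below all probes on the miR-130-5p array, and between 0.04 below and 0.09 above on the 6 arrays of other lines. The 207 probes with GAAAGAG, the match to miR-130b-5p, had a median of -0.19 on the miR-130-5p array and all probes 0.07, with 16.9% at or below -1, beside 6.59% of all. For the 235 probes with AAAAGAG, the match to miR-130a-5p, the median on that array was -0.08 and 12.8% were at or below -1. On the miR-130-3p array the probes with GAAAGAG were 0.08 and those with AAAAGAG 0.04 below all probes. The 160 probes with AAAGGGA, the match to miR-204-5p, lay 0.23 below all probes on both miR-204-5p arrays and at most 0.06 below elsewhere. The 133 probes with ATACTGT, the match to miR-144-3p, lay 0.08 above all probes on the miR-144-3p array and 0.17 below on the miR-130-5p array, so a shift of this size also occurred where no such strand was transfected. These values are descriptions of probe groups that share arrays, and no test was made.

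**Figure D4:**
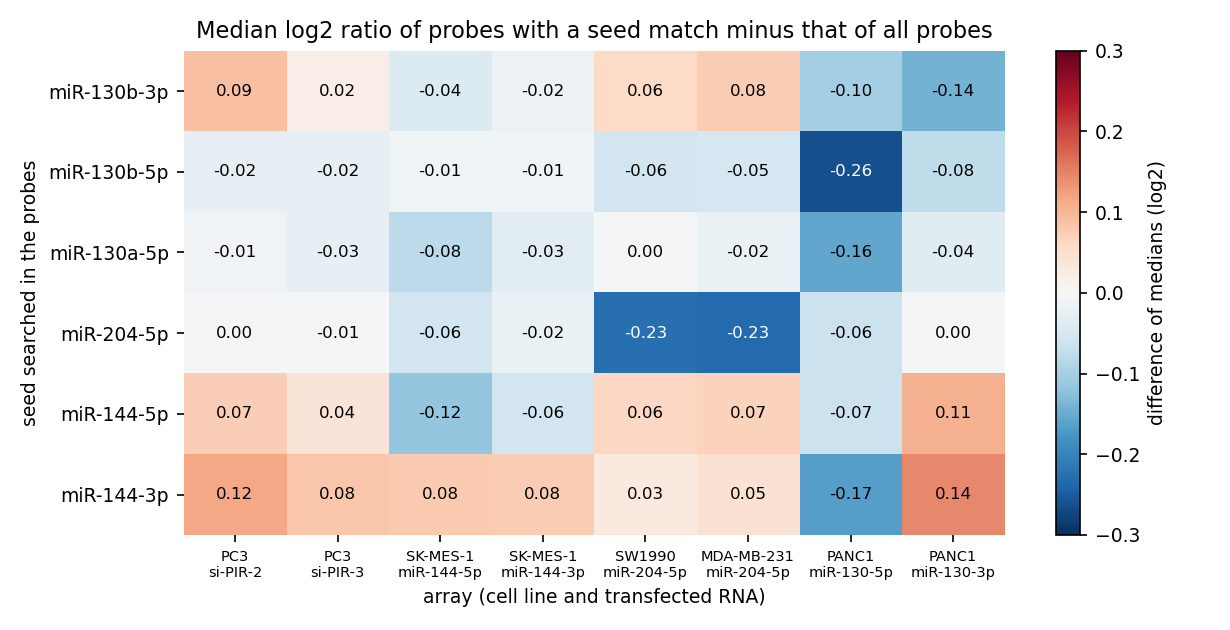
Each cell gives the median log2 ratio of passing probes that hold the match to a seed (rows) minus the median of all passing probes on the same array (columns, cell line and transfected RNA), with blue below and red above 0. The probes with the miR-130b-3p match lie lowest on the miR-130-3p array (-0.14), those with the 5p matches on the miR-130-5p array (-0.26 and -0.16), and those with the miR-204-5p match on both miR-204-5p arrays (-0.23).

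How much of each messenger the cells held before transfection was read from the mock channel, as the log2 signal minus the 75th percentile of its array. Levels are compared for 1 gene between lines and not between genes. Repeated mock channels of 1 line differed by an SD of 0.16 over the probes bright on all arrays, in PC3, SK-MES-1 and PANC1 cells alike. The order of the lines follows, and steps smaller than this, or than the gap between a line's own arrays, are not read as an order.

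TSC1 was highest in SK-MES-1 (-1.07), followed by MDA-MB-231 (-1.59), PC3 (-1.72), PANC1 (-1.77) and SW1990 (-2.88). The steps from MDA-MB-231 to PC3 to PANC1, of 0.12 and 0.06, were within the spread. CSF1 was at -2.84 in PANC1, -2.88 in MDA-MB-231 and -2.95 in SK-MES-1, which did not differ beyond the spread, and lower in PC3 (-3.91) and SW1990 (-4.60). ACVR1 was likewise close in PANC1 (-1.19), SK-MES-1 (-1.24) and PC3 (-1.37), lower in SW1990 (-1.63) and lowest in MDA-MB-231 (-2.43). PANC1 cells were thus at or near the top for CSF1 and ACVR1.

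TGFBR1 was highest in MDA-MB-231 (-3.02) and SK-MES-1 (-3.60), and lower in PANC1 (-5.07) and PC3 (-5.24), which lay within the gap of 0.33 between the PANC1 arrays. In SW1990 cells it was not well above background. TGFBR2 was at 1.91 in MDA-MB-231 and 1.77 in SK-MES-1, within the spread of each other, then 1.08 in PC3, 0.60 in SW1990 and -0.06 in PANC1. Both receptor genes of the TGF-β type were therefore lower in PANC1 than in MDA-MB-231 or SK-MES-1 cells. SMAD5 spanned the smallest range of the 9 genes, from -1.83 in MDA-MB-231 to -2.39 in PC3.

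PPARG was highest in PC3 (1.94), then SW1990 (0.42), PANC1 (-0.22), MDA-MB-231 (-0.39) and SK-MES-1 (-0.94), where the step of 0.17 from PANC1 to MDA-MB-231 was about the spread. ABCA1 was at -1.07 in MDA-MB-231, -2.14 in SK-MES-1, -3.27 in PC3 and -3.33 in SW1990, the last pair within the spread. Only PANC1 cells had no ABCA1 mock signal well above background. ESR1 was dim in all 5 lines, between -5.83 and -6.69, and the gap of 1.73 between the PC3 arrays was wider than that whole range.

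**Figure D5:**
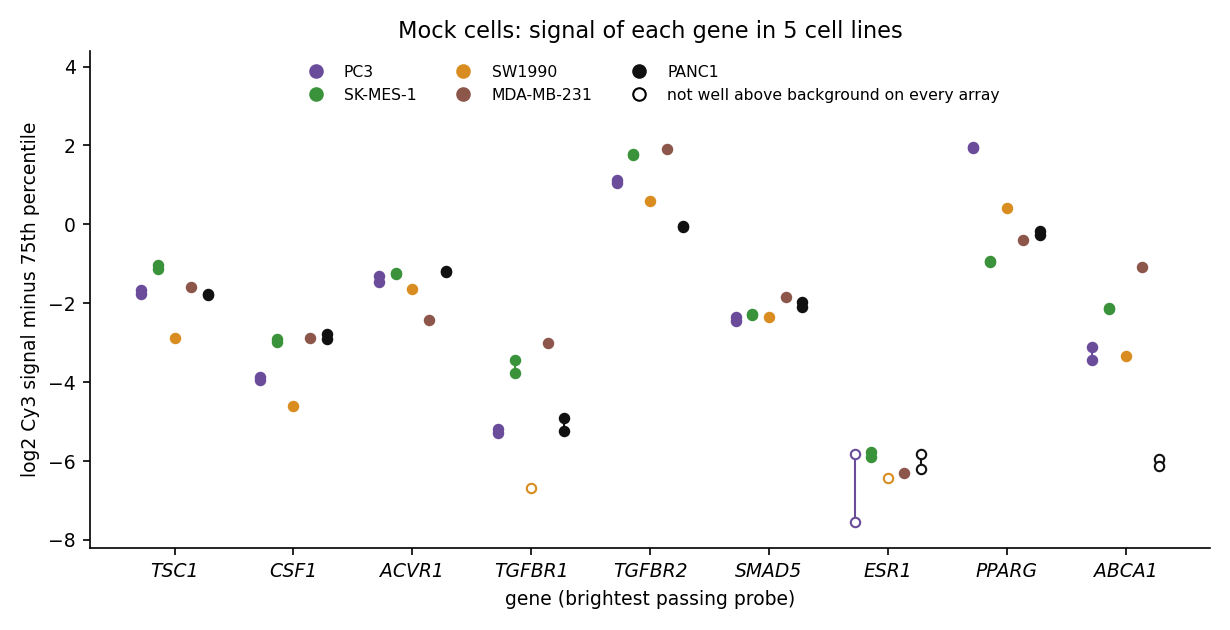
The log2 Cy3 signal of mock cells minus the 75th percentile of the array (vertical axis) is plotted for the 9 genes in 5 cell lines, with 1 symbol per array, a line joining the arrays of 1 line, and open symbols for lines not well above background on every array. PANC1 cells (black) are lowest for TGFBR2 (-0.06) and for ABCA1, and close to the highest for ACVR1 (-1.19) and CSF1 (-2.84).

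The mock channels of the PANC1 arrays were also compared with each other, since their difference enters the difference of the ratios. For TSC1, ACVR1, TGFBR2 and PPARG they differed by 0.01, 0.03, 0.02 and -0.10 (miR-130-3p array minus miR-130-5p array), and for TGFBR1 and ESR1 by -0.33 and -0.38. With the transfected channels alone, miR-130-3p minus miR-130-5p was -0.73 for TSC1, -0.49 for CSF1, -1.22 for ACVR1, -1.001 for PPARG and 0.21 for SMAD5. The number of genes at or below -1 was then 3 of the 9 (ACVR1, PPARG and ABCA1), beside 5.15% of all genes. PPARG now just passed the threshold that it had missed by 0.05. ABCA1, at -1.43, rested on low processed intensities of 21.0 with miR-130-3p and 64.4 with miR-130-5p.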

How the data were processed

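Total RNA of 8 transfections in 5 cell lines was hybridised to 2-colour Agilent arrays, all on 1 slide. The authors deposited the scanner output of Agilent Feature Extraction 11.5.1.1, which holds Cy3 and Cy5 intensity values, the log10 ratio of Cy5 over Cy3 after background correction and dye normalization, and an error of that ratio under the software's own model (unit other). The authors' deposited table of log10 values was identical (largest difference 0), and all its columns could be assigned. Log10 ratios and errors were turned to log2, and the error of a difference is the root of the summed squares.

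Control spots were left out. A probe passed if, on each PANC1 array, Cy3 or Cy5 was well above background. The brightest passing probe over both channels and 8 arrays stood for its gene, and 5021 genes had more than 1. The fold of ABCA1 over its mock signal and the alternative with an offset of 50 used normexp and loess in limma 3.58.1 (R 4.3.3). The other steps used Python 3.11.15, and counting and normalization steps were tested on simulated data. The alternatives changed the background correction, the normalization, the filter, the choice of probe, the threshold and the arrays compared.

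The 9 genes and all gene lists were chosen with earlier results of these data known. All 9 genes and every probe were named, and per list up to 4 genes with the largest difference between the PANC1 arrays, in either direction. SMAD4 and SMAD7 stand in 2 lists each. Some genes of the lists and markers are not reported here. Gene names and hg19 coordinates are those of the array design, and of 17 RefSeq accessions among the probes of the 9 genes 16 matched a RefSeq entry of the same symbol. No exon or untranslated region was assigned to a probe. The number of arrays, 1 per transfection, limits the precision, and saturated or flagged spots were few and touched no probe of the 9 genes.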

Additional observations from a re-analysis of the deposited data

Results flagged for a closer look

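TGFBR2 stood out between the lines that received the same strand. With miR-204-5p its log2 ratio was 0.27 in SW1990 cells and -0.53 in MDA-MB-231 cells, so the values lay on opposite sides of 0. Each line had 1 array and the difference was not tested. The second probe of TGFBR2 read 0.72 in SW1990 and -0.01 in MDA-MB-231 cells.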

How the results depend on the processing

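The count of genes with the lowest ratio of 8 arrays on the miR-130-3p array was 3 of the 9 under every alternative run, of which the deposited table and the filters on dim probes leave the values of the genes as they are. The genes behind this count were not always the same. With the mean over probes CSF1 (-0.44 on the miR-130-3p array) was among the 3 and TSC1 (0.42) was not. The count at or below -1 on that array, 1 in the report, was 0 with normexp and an offset of 50 (loess or median centring) and 0 when the mean of the 6 other arrays was subtracted, and it was 4 at a threshold of 0.5 and 0 at 1.5. For the difference between the PANC1 arrays the count of 2 became 0 with the offset of 50 under loess or centring. It was 1 with an offset of 1, without background correction, with both channels required above background (7 genes left) and with the mean over a gene's probes, and it was 4 at a threshold of 0.5 and 0 at 1.5. The members' median on the miR-130-3p array was -0.13 with the offset of 50 and loess and -0.0202 with the mean over probes. Median centring moved the median of all genes on that array to 0.34, and against it the members stood at 0.12 and the probes with TTGCACT at 0.21 (all probes 0.32). The members' median difference was -0.0094 under centring, with all genes at 0.09. The comparison of transfected channels was chosen after seeing the data. Of the single-gene values that an alternative changed at all, 35 of 51 differences and 37 of 51 ratios moved by less than the software's error, and no value past the threshold changed sign. On the miR-130-3p array ACVR1 (-1.02 to -0.09) and PPARG (-1.18 to -0.36) stayed below 0 throughout, whereas TSC1 ranged from -0.89 to 0.42, above 0 under centring and with the mean over probes. Its difference between the PANC1 arrays ranged from -0.80 to -0.11. Values of ABCA1 and TGFBR1 depended on the background correction, with differences from -1.29 to -0.14 and from 0.36 to 1.77. The causes were not tested. No paired analysis was possible because each transfection had 1 array. Low signal over background limits ESR1, ABCA1 and TGFBR1.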
